A study of Homo sapiens with 12 samples.

Results

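A set of 10 genes of the actin cytoskeleton and of serum response factor (SRF), the transcription factor tied to it, was followed across the 4 groups of the series. They are the cytoplasmic actins ACTB and ACTG1, the tropomyosins TPM1 and TPM4, the calponin-family proteins CNN2 and TAGLN2, the myosin regulatory light chain MYL9, the adhesion protein vinculin (VCL), the cytokine receptor TNFRSF12A and SRF itself. The genes were taken by symbol from a table of 56337 genes, and they were picked with measured values of these libraries in view. Their own values are therefore described with no test. Of the 10 genes, 9 had a 12-library mean of 1 FPKM or more, as did 13682 of all genes, and MYL9 did not. FPKM are fragments scaled to transcript length and to library size, so levels of different genes can be compared per length.

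All 12 libraries came from HEK293T, a line of human embryonic kidney origin with the large T antigen of SV40, labelled wild type in every group. Cells of the FAC groups were first kept for 24 h in 0.1 mg/ml of ferric ammonium citrate (FAC), which supplies iron in soluble form, and the others were not. All were then kept for 24 h with bafilomycin A1 (BafA1, an inhibitor of the proton pump that acidifies lysosomes) at 10 nM or without it. This gave 4 groups of 3 libraries: control with neither agent, BafA1, FAC, and FAC+BafA1. All groups rest on 1 cell line, and the labels do not say that replicates came from separate cultures, so errors and p-values cover only the spread among these libraries, which may be technical.

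Actin exists as free monomers and as filaments, and the cell senses the balance between them through SRF. Monomeric actin binds the SRF cofactors MRTFA and MRTFB and keeps them from acting in the nucleus, and polymerisation releases them. SRF then activates genes for actin, actin-binding and adhesion proteins. A second class of cofactors, the ternary complex factors ELK1, ELK3 and ELK4, answers to MAP kinase signalling and takes SRF to immediate early genes such as FOS and EGR1. SRF binds a short element, the CArG box.

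The CArG box was searched on both strands as CC, then 6 bases that are each A or T, then GG, in the RefSeq start windows (build GRCh38.p14, 250 bases before to 50 bases after a gene's start). Windows were given for 7 of the 10 genes: ACTG1, TAGLN2, VCL, CNN2, TPM1, TPM4 and SRF. ACTG1, CNN2, TPM4 and SRF held the element, in 4 of the 12 windows of these 7 genes. Over all genes it was found in 454 of 35116 windows (1.29%), or 438 of 27305 genes (1.60%). The set was drawn up around SRF, so nothing is read from its share. A match is a run of letters, not evidence of binding. The 4 upstream stretches with a match are shown because they place the element in the genes whose values follow. They lie at chr17:81512852-81513049 on the minus strand (ACTG1), chr19:1026358-1026585 on the plus strand (CNN2), chr19:16067307-16067533 on the plus strand (TPM4) and chr6:43171019-43171268 on the plus strand (SRF). The stretches hold no base that the annotation assigns to an exon, and those of ACTG1 and TPM4 lie inside the annotated gene, which also has an earlier start. Capitals mark the CArG box, whose first base lies 94 bases before the start in ACTG1, 89 in CNN2, 173 in TPM4, and 30 and 10 in SRF, which has 2 copies.
ACTG1: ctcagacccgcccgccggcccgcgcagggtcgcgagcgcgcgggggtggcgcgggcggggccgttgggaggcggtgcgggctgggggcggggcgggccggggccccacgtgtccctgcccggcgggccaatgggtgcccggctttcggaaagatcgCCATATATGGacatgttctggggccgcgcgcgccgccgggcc
CNN2: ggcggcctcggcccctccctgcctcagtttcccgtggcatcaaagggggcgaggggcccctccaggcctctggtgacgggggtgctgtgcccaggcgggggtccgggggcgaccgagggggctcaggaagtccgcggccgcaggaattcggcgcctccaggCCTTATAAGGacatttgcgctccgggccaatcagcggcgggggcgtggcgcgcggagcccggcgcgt
TPM4: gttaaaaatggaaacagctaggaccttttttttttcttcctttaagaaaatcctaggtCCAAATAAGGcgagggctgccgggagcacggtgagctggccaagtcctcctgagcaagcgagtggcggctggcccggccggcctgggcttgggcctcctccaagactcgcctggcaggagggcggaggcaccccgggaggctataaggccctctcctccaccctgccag
SRF: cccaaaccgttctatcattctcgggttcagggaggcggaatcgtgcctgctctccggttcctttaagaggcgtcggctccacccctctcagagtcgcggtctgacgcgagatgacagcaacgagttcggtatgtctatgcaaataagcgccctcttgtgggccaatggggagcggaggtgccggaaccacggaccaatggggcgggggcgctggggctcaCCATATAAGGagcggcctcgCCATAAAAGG

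Summed FPKM ran from 600261 to 651311, with the lowest sums in the BafA1 libraries, and 13244 to 13597 genes reached 1 FPKM. FPKM are already scaled to library size, so their sum does not measure it. Depth was estimated from the steps between low values at 34.4 to 37.9 M fragments per library (M, 10 to the power of 6). Of those values 52.5% to 55.0% lay within 0.2 of a whole fragment in libraries without FAC, and 63.2% to 66.9% in libraries with FAC. It is thus a rough estimate, and its fit differed between libraries with and without FAC. The cause of that split was not tested. Genes known from HEK293 cells were present, with 6 of 8 listed markers at 1 FPKM or more. Markers of keratinocytes or HeLa cells reached it in 0 of 8 cases, of fibroblasts in 1 of 8, of blood in 2 of 8 and of smooth muscle in 2 of 8 (LMOD1 and SMTN). Summed over each list, all 5 kinds of marker stood apart in BafA1 libraries. The smooth muscle sum was 22.9 to 26.8 FPKM there and 17.8 to 20.1 FPKM in the others, and the keratinocyte or HeLa sum 0.77 to 1.33 FPKM against 0.17 to 0.66 FPKM. The fibroblast sum was 3.37 to 3.96 FPKM against 5.17 to 8.70 FPKM, and the blood sum 2.15 to 2.84 FPKM against 3.01 to 4.54 FPKM. The HEK293 sum, which holds VIM, was 882 to 889 FPKM in BafA1, 712 to 717 FPKM in FAC+BafA1 and 466 to 488 FPKM in the libraries without BafA1. The part of these cell-type markers in the results below was not tested.

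The cytoplasmic actins carried the highest levels of the set. In ACTB (ENSG00000075624, chr7:5526409-5563902, minus strand), which encodes beta-actin, control libraries read 1284.28, 1358.82 and 1377.83 FPKM and BafA1 libraries 559.98, 585.73 and 573.81 FPKM. FAC libraries read 1438.27, 1461.51 and 1425.72 FPKM and FAC+BafA1 libraries 1193.90, 1257.97 and 1244.55 FPKM. No neighbouring groups overlapped, in the order FAC, control, FAC+BafA1 and BafA1. The mean in BafA1 was 0.428 times that in control (573 ± 12.9 against 1340 ± 49.4 FPKM, SD, n = 3), and with FAC the same comparison gave 0.855 times (1232 ± 33.8 against 1442 ± 18.2 FPKM, SD, n = 3). On the log2(FPKM + 1) scale, used for all log2 changes here and with the standard error (SE) of the linear model, these were changes of -1.22 ± 0.03 and -0.23 ± 0.03.

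ACTG1 (ENSG00000184009, chr17:81509413-81523847, minus strand), which encodes gamma-actin, had the same order of groups. Its control libraries read 2152.69, 2263.02 and 2248.85 FPKM and its BafA1 libraries 1212.91, 1177.75 and 1160.93 FPKM. FAC libraries read 2340.19, 2317.83 and 2141.68 FPKM, overlapping control, and FAC+BafA1 libraries 1852.15, 1910.31 and 1967.27 FPKM, below both. BafA1 against control was -0.91 ± 0.04 (0.533 times) and FAC+BafA1 against FAC was -0.25 ± 0.04 (0.843 times). Together the actins made up 0.55% of all FPKM in control and 0.29% in BafA1 libraries, and 0.57% and 0.49% in FAC and FAC+BafA1 libraries. ACTB took 37.6% ± 0.33 (SD, n = 3) of that sum in control and 32.6% ± 0.90 in BafA1 libraries, and 38.9% ± 0.97 and 39.2% ± 0.48 in FAC and FAC+BafA1 libraries, with the BafA1 libraries apart from the other 9. Adding their processed pseudogenes, which share sequence with them, left all 4 shares as printed.

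**Figure D1:**
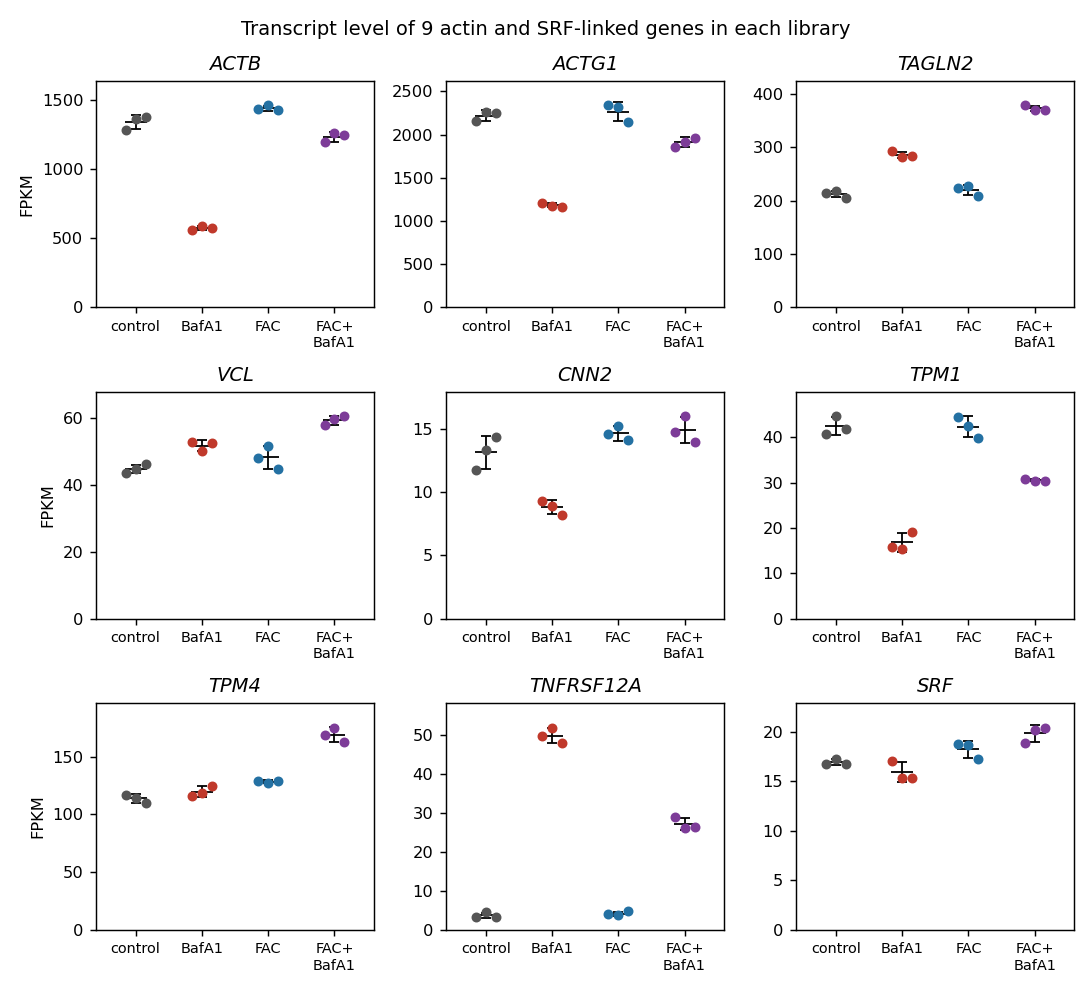
FPKM of 9 genes (vertical axes, from 0) in each library of the 4 groups (horizontal axes): points are libraries, and bars are the mean and SD of 3 libraries. The BafA1 libraries of ACTB (560 to 586 FPKM) lie below all others, those of TNFRSF12A (48.1 to 52.0 FPKM) lie above all others, and for TAGLN2, VCL and TPM4 the FAC+BafA1 libraries are the highest.

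Tropomyosins lie along the actin filament and set which other proteins can bind it, and the 2 described here differed. In TPM1 (ENSG00000140416, chr15:63042620-63071915, plus strand) control libraries read 40.77, 44.60 and 41.88 FPKM and BafA1 libraries 15.90, 15.32 and 19.16 FPKM. FAC libraries read 44.52, 42.50 and 39.92 FPKM and FAC+BafA1 libraries 30.73, 30.46 and 30.43 FPKM. Control and FAC overlapped, and both stood above FAC+BafA1, which stood above BafA1. The change with BafA1 was -1.29 ± 0.07 without FAC (0.396 times) and -0.46 ± 0.07 with FAC (0.722 times).

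TPM4 (ENSG00000167460, chr19:16067021-16103002, plus strand) read 116.94, 114.30 and 109.84 FPKM in control and 115.47, 118.03 and 124.84 FPKM in BafA1 libraries, which overlapped. FAC libraries read 129.05, 126.77 and 129.11 FPKM and FAC+BafA1 libraries 168.97, 175.10 and 162.30 FPKM, the highest of the 4 groups. BafA1 gave 0.07 ± 0.04 without FAC, or 0.17 after quantile normalization, and 0.39 ± 0.04 with FAC (1.32 times). A processed pseudogene of TPM4, TPM4P3, was listed at 6.61 to 12.1 FPKM in the 6 libraries without FAC and at 1.25 to 1.99 FPKM in the 6 with FAC. Its part in the level of TPM4 was not tested.

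Among TPM1 to TPM4 the make-up differed with BafA1. TPM1 made up 10.1% ± 0.54 (SD, n = 3) of their summed FPKM in control and 5.31% ± 0.49 in BafA1, then 9.68% ± 0.49 in FAC and 6.84% ± 0.12 in FAC+BafA1 libraries. TPM4 made up 27.0% ± 0.60 in control and 37.8% ± 0.29 in BafA1, then 29.4% ± 0.24 in FAC and 37.8% ± 0.99 in FAC+BafA1 libraries. The mean TPM4 share was alike in both groups with BafA1, while its FPKM was higher in FAC+BafA1. TPM2 and TPM3, the rest of the family, come from gene lists that were drawn up with earlier results of these data known, and they were tested. TPM3, another cytoskeletal tropomyosin, fell by 0.58 ± 0.02 with BafA1 (0.670 times, limma adjusted p = 1.47e-09). Its smaller change with FAC of -0.10 ± 0.02 passed the test (limma adjusted p = 0.0153) but not after quantile normalization (limma adjusted p = 0.536). It also did not pass with no intensity trend (limma adjusted p = 0.0621) or without FAC+BafA1 replicate 1 (limma adjusted p = 0.0640). TPM2 did not pass in either comparison (-0.21 ± 0.10 and -0.28 ± 0.10), except with FAC after quantile normalization (-0.32, limma adjusted p = 0.0386) and in some fits that left out 1 library.

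**Figure D2:**
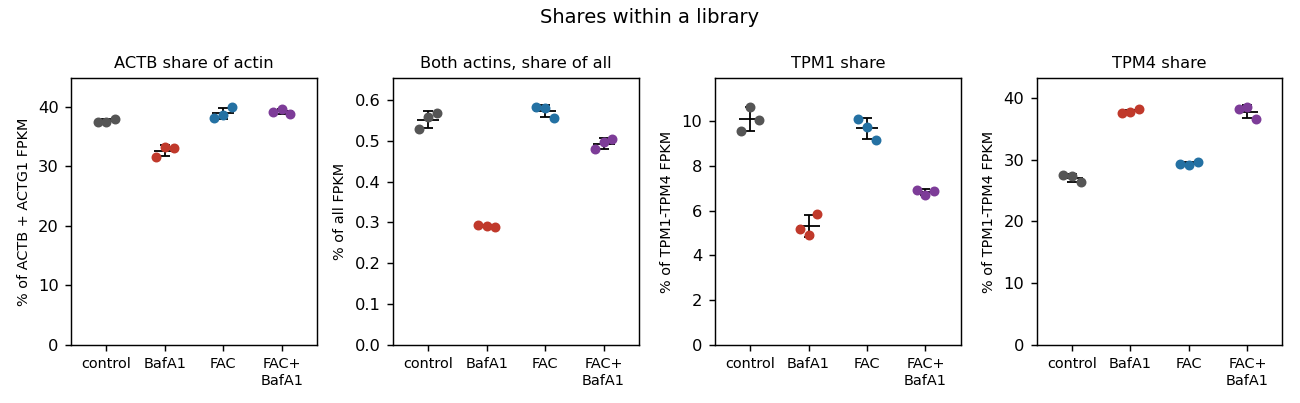
Shares within a library, in % (vertical axes, from 0), for the 4 groups (horizontal axes): ACTB in the 2 cytoplasmic actins, both actins in all FPKM, and TPM1 and TPM4 in the 4 tropomyosins. Points are libraries, and bars are the mean and SD of 3 libraries. The actin share of all FPKM was 0.29% in BafA1 and 0.49% to 0.57% in the other groups, and the TPM4 share was 37.8% in both groups with BafA1.

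CNN2 encodes calponin-2, an actin-binding protein that steadies filaments (ENSG00000064666, chr19:1026586-1039068, plus strand). It read 11.79, 13.34 and 14.40 FPKM in control and 9.33, 8.94 and 8.21 FPKM in BafA1 libraries. FAC libraries read 14.59, 15.26 and 14.10 FPKM and FAC+BafA1 libraries 14.75, 16.00 and 13.98 FPKM. The BafA1 libraries lay below the other 9, and control, FAC and FAC+BafA1 overlapped as neighbours. The change with BafA1 was -0.53 ± 0.07 without FAC (0.670 times) and 0.02 ± 0.07 with FAC, where its sign turned after quantile normalization (-0.02). Its paralogue CNN3 had 0.05 ± 0.03 without FAC (limma adjusted p = 0.181) and rose by 0.27 ± 0.03 with FAC (limma adjusted p = 8.17e-05). The CNN3 change without FAC also passed after median-of-ratios scaling (0.12, limma adjusted p = 0.00273) and after quantile normalization (0.15, limma adjusted p = 0.0012).

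TAGLN2 encodes transgelin-2, a small actin-bundling protein of the calponin family (ENSG00000158710, chr1:159918107-159925507, minus strand). It read 215.25, 217.33 and 205.73 FPKM in control and 292.91, 281.02 and 282.80 FPKM in BafA1 libraries. FAC libraries read 222.86, 227.97 and 208.69 FPKM and FAC+BafA1 libraries 378.67, 369.90 and 369.72 FPKM. Both groups with BafA1 stood above both groups without it, and FAC+BafA1 stood highest. The change with BafA1 was 0.42 ± 0.04 without FAC (1.34 times) and 0.76 ± 0.04 with FAC (1.70 times), and after quantile normalization 0.64 and 0.81. Its pseudogene TAGLN2P1 read 5.43 to 6.50 FPKM in FAC+BafA1 and 2.71 to 4.70 FPKM in the other libraries. The relative TAGLN had 0.32 ± 0.18 and 0.34 ± 0.18, and passed in neither comparison (limma adjusted p = 0.142 and 0.218), although the first passed without BafA1 replicate 2 (limma adjusted p = 0.0436).

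Vinculin links integrin adhesions and cell junctions to actin. VCL (ENSG00000035403, chr10:73995193-74121363, plus strand) read 43.49, 44.60 and 46.11 FPKM in control and 52.64, 49.96 and 52.57 FPKM in BafA1 libraries. FAC libraries read 48.15, 51.67 and 44.75 FPKM, overlapping both, and FAC+BafA1 libraries 57.72, 59.54 and 60.43 FPKM, above all others. The change with BafA1 was 0.21 ± 0.05 without FAC (1.16 times) and 0.29 ± 0.05 with FAC (1.23 times). The gene AP3M1 overlaps VCL on the opposite strand and was listed at 45.8 to 48.7 FPKM. Whether fragments were counted by strand is not given in the sources used here, so the 2 may share fragments. MYL9 (ENSG00000101335, chr20:36541497-36551447, plus strand) was listed at 0 in all 12 libraries, so it has no fold. Its paralogues MYL12A and MYL12B, which encode regulatory light chains of non-muscle myosin, were at 80.7 ± 3.97 and 101.6 ± 2.94 FPKM in control (SD, n = 3). They passed the test neither for BafA1 (-0.06 ± 0.04 and -0.01 ± 0.04) nor for FAC+BafA1 against FAC (0.09 ± 0.04 and 0.10 ± 0.04). In the latter comparison MYL12A passed when only those 2 groups were fitted (limma adjusted p = 0.0456), and MYL12B after quantile normalization (0.14, limma adjusted p = 0.0267). For BafA1 against control MYL12A passed without control replicate 3 (-0.10, limma adjusted p = 0.0421).

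TNFRSF12A is the receptor for the cytokine TWEAK and signals through TRAF proteins to NF-kB. TNFRSF12A (ENSG00000006327, chr16:3018445-3022383, plus strand) read 3.33, 4.44 and 3.28 FPKM in control and 49.73, 51.98 and 48.05 FPKM in BafA1 libraries. FAC libraries read 3.97, 3.71 and 4.69 FPKM, overlapping control, and FAC+BafA1 libraries 29.05, 26.24 and 26.34 FPKM, between the BafA1 libraries and the rest. The change with BafA1 was 3.45 ± 0.09 without FAC (13.6 times) and 2.46 ± 0.09 with FAC (6.60 times). Among the 13682 genes it was number 9 by the size of its increase without FAC and number 3 with FAC. The overlapping gene CLDN6 on the opposite strand was listed at no more than 0.23 FPKM.

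SRF (ENSG00000112658, chr6:43171269-43181506, plus strand) spanned a narrow range. It read 16.77, 17.27 and 16.76 FPKM in control, 17.05, 15.36 and 15.35 FPKM in BafA1, 18.71, 18.67 and 17.25 FPKM in FAC and 18.87, 20.18 and 20.40 FPKM in FAC+BafA1 libraries. Control overlapped BafA1 as well as FAC, and the FAC+BafA1 libraries lay above all others. The change with BafA1 was -0.09 ± 0.05 without FAC (0.940 times) and 0.12 ± 0.05 with FAC (1.09 times). After median-of-ratios scaling the first of these was -0.02.

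**Figure D3:**
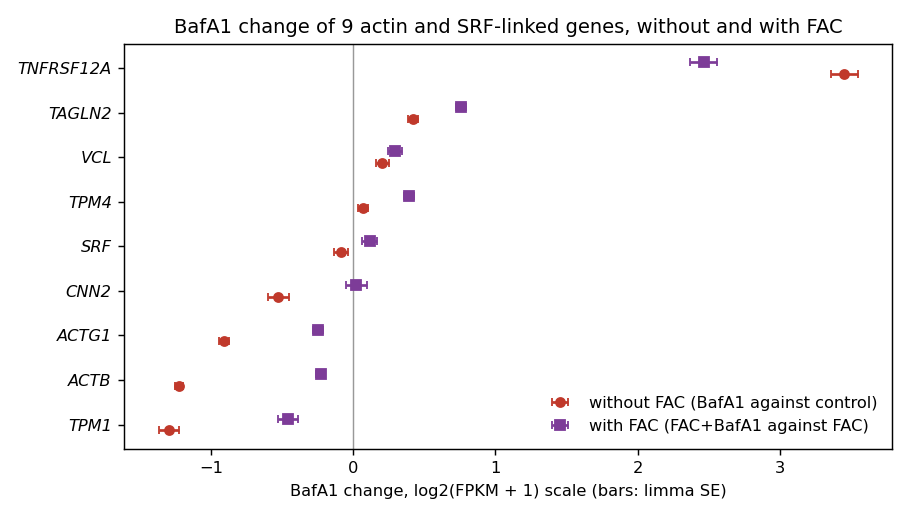
Change with BafA1 of 9 genes on the log2(FPKM + 1) scale (horizontal axis), without FAC (circles, BafA1 against control) and with FAC (squares, FAC+BafA1 against FAC): points are the estimates from 3 libraries a group, and bars are the model's SE. ACTB, ACTG1, TPM1 and CNN2 lie closer to 0 with FAC, TAGLN2 and TPM4 lie farther above 0, and TNFRSF12A lies at 2.46 against 3.45.

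Set side by side, the 9 genes differed in how the change with BafA1 compared between cells with and without FAC. The difference of the 2 log2 changes, with FAC minus without, was 0.997 ± 0.04 for ACTB, 0.66 ± 0.05 for ACTG1, 0.84 ± 0.10 for TPM1 and 0.55 ± 0.10 for CNN2. These are the 4 genes that were lower in BafA1 than in control with no overlap. It was 0.34 ± 0.05 for TAGLN2, or 0.16 after quantile normalization, and 0.32 ± 0.05 for TPM4. For SRF it was 0.20 ± 0.07, and for VCL 0.09 ± 0.07, or 0.01 after median-of-ratios scaling. TNFRSF12A had the opposite sign, -0.99 ± 0.13. Measured directly, FAC+BafA1 against BafA1 was 1.10 for ACTB, 0.69 for ACTG1, 0.83 for TPM1, 0.69 for CNN2 and -0.85 for TNFRSF12A. This comparison shares its BafA1 libraries with BafA1 against control.

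In numbers of genes, BafA1 libraries did not overlap control for 7 of the 9 genes, 3 higher and 4 lower, where 68.7% of all genes tested did not overlap (30.4% higher and 38.3% lower). FAC+BafA1 did not overlap FAC for 8 of 9, 5 higher and 3 lower, against 36.9% of all genes (18.8% higher and 18.1% lower). FAC did not overlap control for 2 of 9, ACTB and TPM4, both higher, against 20.3% of all genes (9.88% higher and 10.5% lower). FAC+BafA1 did not overlap BafA1 for 9 of 9, 8 higher and TNFRSF12A lower, against 71.2% of all genes (40.4% higher and 30.8% lower). FAC+BafA1 did not overlap control for 8 of 9, 5 higher and 3 lower, against 46.1% of all genes (22.7% higher and 23.3% lower). Since the genes were picked on such values, nothing is read from these counts. Across the 12 libraries ACTB varied with ACTG1 (Pearson r = 0.99), TPM1 (r = 0.96) and CNN2 (r = 0.93), TAGLN2 with VCL (r = 0.94), and TNFRSF12A opposite to TPM1 (r = -0.91). These values describe 12 libraries that share 4 group means.

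The genes whose levels followed SRF most closely over the 12 libraries, among 11560 protein-coding genes, were TMEM115 (Pearson r = 0.948), LSS (0.947), HADHA (0.945), S1PR2 (0.944) and TMEM201 (0.943). Among those that followed TNFRSF12A most closely were STX3 (0.997), JUN (0.994), MAFK (0.994) and HSPB8 (0.993). These likenesses too rest on 4 group means.

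The wider pathway was read from 183 further genes in 12 lists, some of which share genes, and 163 of them were tested with limma. The lists were drawn up with earlier results of these data known. A gene is called here when its p-value, adjusted by Benjamini-Hochberg over all 13682 genes, is under 0.05. With BafA1 against control 123 of the 163 were called, 53 higher and 70 lower, where 67.1% of all genes were called (29.5% higher and 37.6% lower). After median-of-ratios scaling the calls were 60 higher and 61 lower, so the excess of lower calls depends on the scaling. With FAC+BafA1 against FAC 49 were called, 41 higher and 8 lower, where 19.3% of all genes were called (9.76% higher and 9.49% lower). Of the 163, 5 (ANKRD1, ARC, EGR1, FOS and FOSB) reached the minimum only through libraries given BafA1, so their rise partly decided that they were tested. Leaving these 5 out, 48 were called higher with BafA1 against control and 36 with FAC+BafA1 against FAC. They are part of every count of the 163. The median log2 change of all genes tested was -0.04 in the first comparison and 0.00 in the second, beside which list medians are given. In bulk RNA, fewer cells with a transcript and less transcript per cell cannot be told apart.

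**Figure D4:**
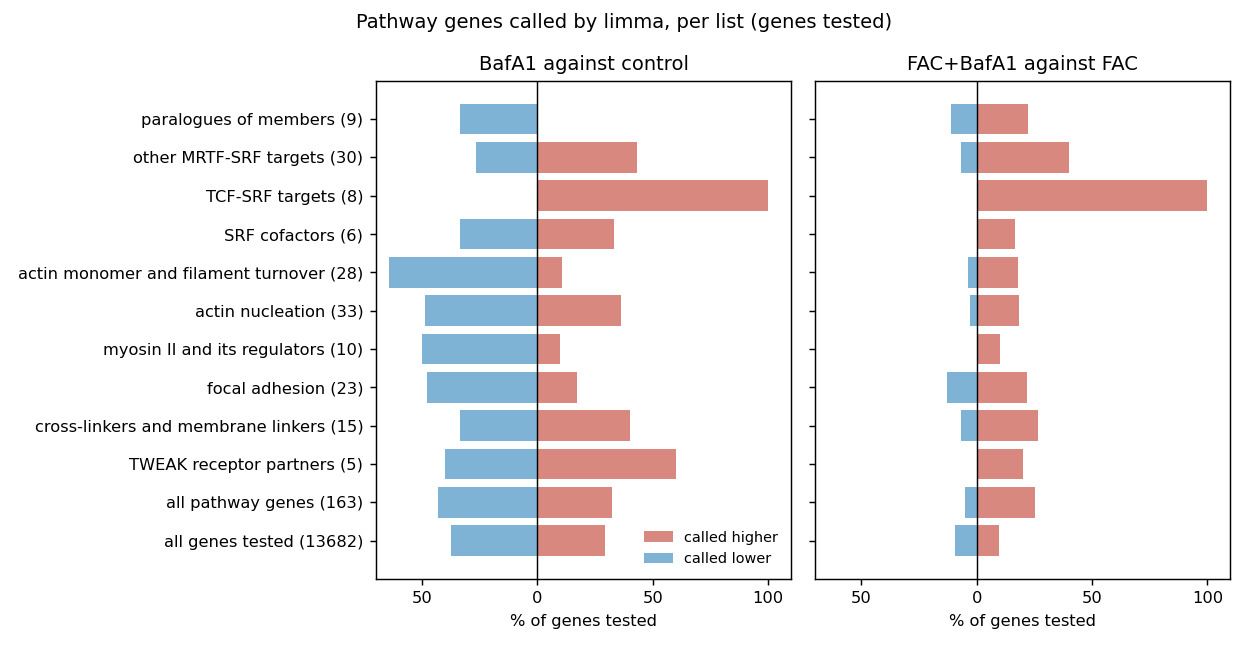
Share of the genes tested in each list that limma called higher (to the right) or lower (to the left), in % (horizontal axes), for BafA1 against control and FAC+BafA1 against FAC, with all pathway genes and all genes tested as the lowest 2 rows and the number tested in brackets. The 8 genes of the ternary complex factor list were all called higher in both comparisons, 4 of them having reached the minimum only through libraries given BafA1, and 64.3% of the filament turnover list was called lower with BafA1 against control.

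Of 6 SRF cofactors tested, 2 rose, 2 fell and 2 did not pass with BafA1 (median 0.05). MRTFA, the actin-sensing cofactor, rose from 8.91 ± 0.45 to 13.1 ± 0.94 FPKM (SD, n = 3, 0.51 ± 0.07, limma adjusted p = 3.29e-05). It rose likewise with FAC, from 8.84 ± 0.67 to 12.2 ± 0.65 FPKM (0.42 ± 0.07, limma adjusted p = 0.00129). MRTFB passed in neither comparison (0.04 ± 0.11 and -0.04 ± 0.11), nor did ELK1 (0.06 ± 0.05 and -0.03 ± 0.05), which passed without FAC after median-of-ratios scaling (0.13, limma adjusted p = 0.0443). ELK4 rose without FAC (0.26 ± 0.06, limma adjusted p = 0.00197). ELK3, a ternary complex factor that can repress, fell from 6.91 ± 0.48 to 4.15 ± 0.54 FPKM (limma adjusted p = 1.35e-05), and SCAI, a suppressor of MRTF, fell by 0.53 ± 0.08 (limma adjusted p = 6.63e-05). Of the 6, MRTFA alone passed in FAC+BafA1 against FAC (median 0.03).

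Of 30 tested targets of MRTF and SRF outside the set, 13 rose and 8 fell with BafA1 (median 0.11), and 12 rose and 2, ACTA2 and TPM3, fell in FAC+BafA1 against FAC (median 0.20). ANKRD1, a nuclear repeat protein induced by stretch, read 0.05, 0.09 and 0.23 FPKM in control and 11.66, 11.96 and 11.32 FPKM in BafA1 libraries. In FAC it read 0.12, 0.06 and 0.12 FPKM and in FAC+BafA1 1.26, 1.21 and 1.40 FPKM, so its rise was 3.50 ± 0.08 without FAC and 1.06 ± 0.08 with it (limma adjusted p = 1.14e-11 and 4.39e-06). CCN1, a matrix-bound signalling protein, rose by 2.01 ± 0.06 and 0.97 ± 0.06, and the small GTPase RHOB by 1.22 ± 0.04 and 0.54 ± 0.04 (limma adjusted p between 7.63e-11 and 1.66e-06). ANKRD1 too reached the minimum of 1 FPKM only through libraries given BafA1. VIM, the intermediate filament protein vimentin, rose from 354.7 ± 4.75 to 697 ± 14.3 FPKM without FAC and from 334.9 ± 4.56 to 563 ± 2.81 FPKM with it. The actin cross-linkers ACTN1 and FLNA, of the same list, fell without FAC (-0.70 ± 0.05 and -0.55 ± 0.09, limma adjusted p = 1.35e-07 and 0.000101). With FAC they had 0.00 ± 0.05 and 0.02 ± 0.09 and did not pass. ACTA2, smooth muscle actin and the 1 of 4 other actins that was tested, had 0.01 ± 0.09 without FAC and fell by 0.33 ± 0.09 with it (limma adjusted p = 0.0218), a call lost with no filter (limma adjusted p = 0.0559).

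All 8 tested targets of the ternary complex factors and SRF rose with BafA1 (median 1.68), and all 8 rose with FAC+BafA1 against FAC (median 0.73). Of the 8, EGR1, FOS, FOSB and ARC reached the minimum of 1 FPKM only through the libraries given BafA1, so their rise partly decided that they were tested. The other 4, IER2, JUNB, MCL1 and NR4A1, reached it in the libraries without BafA1 as well, and all 4 rose in both comparisons; FOSB and these 4 are named after their values were seen. EGR1, an immediate early transcription factor, read 0.49, 0.50 and 0.47 FPKM in control and 203.41, 196.88 and 164.07 FPKM in BafA1 libraries. With FAC it went from 0.61, 0.58 and 0.42 FPKM to 15.10, 14.61 and 11.61 FPKM, and neither pair of groups overlapped. Its changes were 6.98 ± 0.10 and 3.26 ± 0.10. FOS, a partner of JUN in AP-1, rose by 4.60 ± 0.12 and 1.01 ± 0.12 (limma adjusted p = 3.21e-11 and 0.000168). ARC, an immediate early gene known from neurons, rose by 4.23 ± 0.15 and 1.28 ± 0.15 (limma adjusted p = 3.19e-10 and 0.000139). The rise was smaller with FAC than without for all 8, by the test of the difference itself (limma interaction, median -1.06).

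The CArG box was found in the start windows of 16 of 160 other pathway genes with an entry (10.0%), against 1.60% of all genes. The lists include genes chosen as SRF targets, so a share above that of all genes was set in advance, and nothing is read from it. Of the 16 genes 11 were tested. With BafA1 6 rose, 3 fell and 2 did not pass (median 0.34), and 5 rose and 6 did not pass in FAC+BafA1 against FAC (median 0.21). Over all genes 67.1% were called in the first comparison (29.5% higher and 37.6% lower) and 19.3% in the second (9.76% higher and 9.49% lower). EGR1, among those that rose, reached the minimum only through libraries given BafA1. Of the 4 genes with printed stretches, in BafA1 libraries ACTG1 and CNN2 were below control, and TPM4 and SRF overlapped it.

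Proteins that bind actin monomers or turn filaments over fell with BafA1 in 18 of 28 genes and rose in 3 (median -0.21). Both cofilins (CFL1 and CFL2), which sever filaments, and the 3 capping protein genes (CAPZA1, CAPZA2 and CAPZB) were among those that fell, a grouping made after their values were seen. The fall of CAPZA1 was small (-0.08 ± 0.03, limma adjusted p = 0.0415), and its BafA1 and control libraries overlapped. A change of this size may depend on the scaling: SRF had -0.09, and -0.02 after median-of-ratios scaling. PFN2, a profilin that delivers monomers to growing ends, read 157.66, 149.35 and 157.57 FPKM in control and 72.09, 73.31 and 76.72 FPKM in BafA1 libraries (-1.05 ± 0.03, limma adjusted p = 1.66e-10). TMSB10, a thymosin that sequesters monomers, read 549.40, 548.59 and 518.66 FPKM in control and 285.16, 291.23 and 295.05 FPKM in BafA1 libraries (-0.89 ± 0.04, limma adjusted p = 8.27e-10). Neither pair overlapped. With FAC, 5 of the 28 rose and 1, PFN2, fell (median 0.01). PFN2 fell by 0.20 ± 0.03 there (limma adjusted p = 0.00196), and TMSB10 had -0.08 ± 0.04 (limma adjusted p = 0.164, or 0.0389 without FAC replicate 3). TMOD1, which caps the slow-growing end of filaments, was among the few that rose without FAC (0.70 ± 0.07) and rose with it as well (0.76 ± 0.07), while the cyclase-associated protein CAP2 rose with FAC (0.32 ± 0.06, limma adjusted p = 0.0032). In FAC+BafA1 against BafA1, 21 of the 28 were higher and 1 lower (median 0.35), where 67.9% of all genes were called (38.8% higher and 29.1% lower, median 0.06).

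Of 33 actin nucleators, formins and the Arp2/3 complex among them, 12 rose and 16 fell with BafA1 (median -0.09), and 6 rose and 1, ARPC1A, fell in FAC+BafA1 against FAC (median 0.02). All 9 listed subunit genes of the Arp2/3 complex, which starts branches on filaments, were among the 16 that fell, again a grouping made after their values were seen. The formin DIAPH3 rose by 1.03 ± 0.04 and by 0.38 ± 0.04 (limma adjusted p = 6.99e-10 and 6e-05). ARPC4, a subunit of the Arp2/3 complex, fell by 0.92 ± 0.05 without FAC (limma adjusted p = 1.71e-08) and had -0.15 ± 0.05 with it (limma adjusted p = 0.0627). The latter change passed with a minimum of 5 FPKM (limma adjusted p = 0.0491). The formin FHOD1 fell by 0.88 ± 0.09 and had -0.05 ± 0.09 with FAC.

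Of 10 genes of myosin II and its regulators, 1 rose and 5 fell with BafA1 (median -0.13). The essential light chain MYL6 fell from 736 ± 31.5 to 481 ± 10.3 FPKM (limma adjusted p = 1.58e-08). With FAC it rose from 734 ± 25.1 to 810.5 ± 13.3 FPKM (limma adjusted p = 0.0134), a call that was lost without the first FAC+BafA1 replicate (limma adjusted p = 0.0539), and it was the 1 gene of the list that passed there (median 0.03). The heavy chain MYH10 fell by 0.36 ± 0.05 without FAC and had -0.14 ± 0.05 with it (limma adjusted p = 0.0743, or 0.0495 without control replicate 1). Of the 9 tested paralogues of the described genes, MYL6, MYL6B and TPM3 fell and 0 rose with BafA1 (median -0.06), and MYL6 and CNN3 rose and TPM3 fell in FAC+BafA1 against FAC (median 0.10). That 0 rose with BafA1 depends on the scaling. After median-of-ratios scaling and quantile normalization CNN3 passed as higher (limma adjusted p = 0.00273 and 0.0012). So did CTNNA1, also of the 9 (0.13 and 0.15, limma adjusted p = 0.0134 and 0.0101), which had 0.06 ± 0.04 without such scaling (limma adjusted p = 0.236).

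Of 23 focal adhesion genes tested, 4 rose and 11 fell with BafA1 (median -0.13), and 5 rose and 3 fell in FAC+BafA1 against FAC (median 0.03). TES, a LIM protein of adhesions, rose from 18.6 ± 0.81 to 65.0 ± 0.86 FPKM without FAC and from 19.4 ± 0.996 to 38.1 ± 0.45 FPKM with it (limma adjusted p = 1.34e-11 and 4.09e-08). ZYX, the tension-sensing LIM protein zyxin, rose by 0.49 ± 0.06 and 0.53 ± 0.06 (limma adjusted p = 7.41e-06 and 5.11e-05). Among 15 cross-linkers and membrane linkers 6 rose and 5 fell (median -0.00), then 4 rose and 1 fell (median 0.08). The 1 that fell in both was FSCN1, which bundles filaments in protrusions: it read 33.13, 35.27 and 34.19 FPKM in control and 14.15, 14.44 and 13.79 FPKM in BafA1 libraries. Its smaller fall with FAC (-0.26 ± 0.06, limma adjusted p = 0.00786) did not pass when only those 2 groups were fitted (limma adjusted p = 0.0639). The spectrin SPTAN1 rose in both (0.55 ± 0.05 and 0.23 ± 0.05).

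Of 5 tested partners of the TWEAK receptor, 3 rose and 2 fell with BafA1 (median 0.23). MAP3K14, the NF-kB inducing kinase, rose from 1.67 ± 0.10 to 3.53 ± 0.11 FPKM and, with FAC, from 1.71 ± 0.05 to 2.40 ± 0.08 FPKM (limma adjusted p = 5.46e-07 and 0.00455). It was the 1 of the 5 that passed with FAC (median 0.04). The adaptors TRAF5 and TRAF2 fell by 0.65 ± 0.08 and 0.44 ± 0.08 without FAC (limma adjusted p = 1.37e-05 and 0.000481).

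The test of the difference itself, the change with BafA1 in cells given FAC minus that in cells without, called 99 of the 163 pathway genes, 68 positive and 31 negative, where 50.1% of all genes were called (29.5% positive and 20.6% negative). The positive share of calls was 68.7%, and after median-of-ratios scaling it was 58.4% (52 of 89). Over all genes 4032 calls were positive and 2818 negative before that scaling, which moved the median of all genes from 0.06 to 0.00. The share over all genes after the scaling is not given, so no lean of the pathway genes is read from 58.4%. The median was 0.12 for the pathway genes and 0.06 for all genes. Of the filament turnover genes 19 were positive and 1 negative (median 0.35), and of the targets of ternary complex factors all 8 were negative. Of these 8, 4 reached the minimum only through libraries given BafA1, as did 5 of the 163.

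**Figure D5:**
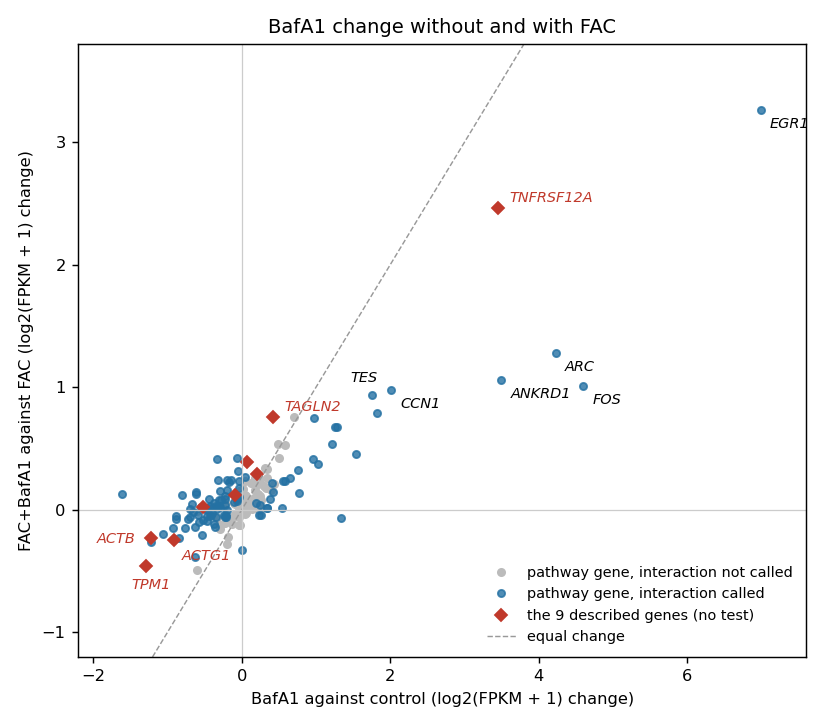
Change with BafA1 on the log2(FPKM + 1) scale without FAC (horizontal axis) and with FAC (vertical axis) for 163 pathway genes (circles, coloured where limma called the difference of the 2 changes) and the 9 described genes (diamonds, no test). The dashed line marks equal change. EGR1 lies at 6.98 and 3.26, and ACTB at -1.22 and -0.23.

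Few of these genes were called with FAC alone. Of the 163 pathway genes 3 were called in FAC against control, where 9.56% of all genes were called (4.72% higher and 4.84% lower), and 15 had an unadjusted p under 0.05. They were CNN3 (0.12 ± 0.03, limma adjusted p = 0.0238), the guanine nucleotide exchange factor ARHGEF1 (0.25 ± 0.07, limma adjusted p = 0.0304) and VIM (-0.08 ± 0.02, limma adjusted p = 0.0356), where ARHGEF1 is named after its value was seen. Other settings gave 0 to 4 such calls. Across the whole table, 627 genes were at 0 in all libraries on 1 side of the FAC split and at 1 FPKM or more on the other, and 0 of them were among the genes described here. Libraries with and without FAC may therefore have been quantified differently. This bears on every value that compares them directly (FAC against control, FAC+BafA1 against BafA1 and FAC+BafA1 against control). It may also bear on the difference of the changes with BafA1, and on changes and shares set side by side with and without FAC. The part of such a split in any of these values was not tested. Among the described genes the changes with FAC alone were 0.17 for TPM4, 0.15 for CNN2, 0.13 for TNFRSF12A and 0.11 for ACTB, and between -0.00 and 0.10 for the others. Their signs for ACTG1 and TPM1 turned under other scalings or without 1 library.

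FAC+BafA1 against control called 70 of the 163 pathway genes, 55 higher and 15 lower, where 32.9% of all genes were called (16.2% higher and 16.6% lower). The described genes here had 2.60 for TNFRSF12A, 0.81 for TAGLN2, 0.57 for TPM4 and 0.40 for VCL, and -0.46 for TPM1, -0.22 for ACTG1 and -0.12 for ACTB. SRF and CNN2 had 0.21 and 0.17. FAC+BafA1 libraries stood above control for TAGLN2, VCL, TPM4, TNFRSF12A and SRF and below it for ACTB, ACTG1 and TPM1, with no overlap.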

How the data were processed

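Polyadenylated RNA from 12 HEK293T libraries (4 groups of 3) was prepared with a stranded kit, per the labels' protocols. The deposited table gives FPKM, made by the authors with STAR and RSEM on GRCh38, per the submitters' processing notes. The sources used here name no versions, annotation or strand setting. Of 56340 entries, 3 repeated IDs at 0 were dropped, and 56104 of 56337 IDs matched a list of gene names. Positions came from GENCODE release 44.

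The 10 genes and the 12 lists of pathway genes were chosen with earlier results of these data known. The results of 1 list and 1 further gene are not reported here. Values were taken as log2(FPKM + 1), without further scaling, for the 13682 genes averaging 1 FPKM or more. A mean per group was fitted to all 12 libraries with limma 3.58.1 in R 4.3.3 (empirical Bayes with an intensity trend, 8 residual degrees of freedom), giving 6 contrasts, each adjusted by Benjamini-Hochberg over all genes, with a threshold of 0.05. Errors on log2 changes are the model's SE. The script was tested on simulated data. Named pathway genes are, per list, up to 3 called genes with the largest change and no overlap in BafA1 against control and in FAC+BafA1 against FAC (where none was called, the 1 with the smallest adjusted p), besides the SRF cofactors and the paralogues. No count model was used, since FPKM are not counts. Alternatives were 8 settings (median-of-ratios scaling, quantile normalization, a pseudocount of 0.1, no filter, a minimum of 5 FPKM, a replicate block, no intensity trend, the compared groups alone) and leaving out each library in turn.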

Additional observations from a re-analysis of the deposited data

Results flagged for a closer look

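For 33 of the named pathway genes the change with BafA1 differed between cells with and without FAC, by limma's test of the difference itself (adjusted p under 0.05 over all genes). Values below are that difference, with FAC minus without, on the log2(FPKM + 1) scale, and 50.1% of all genes passed the same test. Most named genes were picked for a large change in BafA1 against control or in FAC+BafA1 against FAC. The test takes the difference of these same changes, so that choice favours a call. Nothing is therefore read from the number of 33 beside the share of all genes. Groups of 3 libraries are too small to search for single stray libraries.

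Among genes that were higher in BafA1 than in control, the difference was -3.73 for EGR1, -3.59 for FOS and -2.94 for ARC, targets of the ternary complex factors. It was -2.44 for ANKRD1, -1.04 for CCN1, -0.68 for RHOB and -0.23 for VIM, targets of MRTF and SRF. It was -0.81 for TES, -0.65 for DIAPH3, -0.43 for MAP3K14, -0.35 for ABI1 and -0.32 for SPTAN1. EGR1, FOS, ARC and ANKRD1 reached the minimum for the test only through libraries given BafA1.

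Among genes that were lower in BafA1 than in control, the difference was 0.85 for PFN2, 0.81 for TMSB10 and 0.44 for LIMK1 in filament turnover. It was 0.77 for ARPC4 and 0.83 for FHOD1 in nucleation. It was 0.75 for MYL6, 0.27 for MYL6B and 0.22 for MYH10 in myosin II and its light chains, and 0.70 for ACTN1, 0.58 for FLNA, 0.96 for FSCN1 and 0.23 for CSRP2 in adhesion and cross-linking. The tropomyosin TPM3 had 0.48, the SRF cofactors ELK3 and SCAI 0.75 and 0.33, and the adaptors TRAF5 and TRAF2 0.63 and 0.53.

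Among genes that did not pass in BafA1 against control, the difference was 0.22 for CNN3, 0.36 for CAP2, 0.15 for MYL12A and -0.34 for ACTA2.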

How the results depend on the processing

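Of the 6 counts of called pathway genes, 5 stayed within 1.5 times their reported value under all 8 settings and without any 1 library. Leaving out 1 library at a time gave 115 to 123 for BafA1 against control, 105 to 115 for FAC+BafA1 against BafA1, 39 to 51 for FAC+BafA1 against FAC, 52 to 73 for FAC+BafA1 against control and 88 to 95 for the difference of the 2 changes with BafA1. The count for FAC against control, 3 as reported, was not stable. With limma it was 0 with a minimum of 5 FPKM (13 genes at an unadjusted p under 0.05), 0 when only the compared groups were fitted (11 at an unadjusted p under 0.05), 1 with a replicate block and 1 with no intensity trend. Leaving out 1 library gave 0 to 3, with 0 without FAC replicate 2 and 1 without control replicate 1. The cause was not tested.

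Replicate numbers did not pair the samples: libraries with the same number deviated from their group means with correlations of -0.07 to 0.14. With the replicate block the other counts were 122 for BafA1 against control, 112 for FAC+BafA1 against BafA1, 50 for FAC+BafA1 against FAC, 66 for FAC+BafA1 against control and 94 for the difference. Among named genes the block added calls in FAC+BafA1 against FAC for ARPC4 (limma adjusted p = 0.0461), MYLK (0.0346) and MYL12B (0.0379).

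Of the log2 changes of the described genes, 35 of 423 recomputed under other settings moved by more than the spread between replicates, and 0 of 648 did without 1 library. The calls of LIMK1 and DAAM1 were lost under several settings in both comparisons. ACTA2 with FAC lost its call with no filter (limma adjusted p = 0.0559) and without some single libraries.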

Other observations

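Several relatives of the cytoplasmic actins were listed at low levels. ACTBL2, a near copy of ACTB with an uncertain share of its fragments, read 0.00 to 0.01 FPKM in control, 1.09 to 1.32 FPKM in BafA1, 0.00 to 0.04 FPKM in FAC and 0.30 to 0.40 FPKM in FAC+BafA1 libraries. ACTG1P25, a processed pseudogene of ACTG1, was listed at 0 in all 6 libraries without FAC and at 0.42 to 0.77 FPKM in the 6 with FAC. Of the 627 genes at 0 on 1 side of the FAC split and at 1 FPKM or more on the other, 304 were at 0 without FAC and 323 with it. CNN1, the smooth muscle calponin, was under the minimum for the test and read 0.05, 0 and 0.05 FPKM in control and 0.40, 0.34 and 0.35 FPKM in BafA1 libraries. FAC libraries read 0.05, 0 and 0.52 FPKM, 1 of them the highest of all 12, and FAC+BafA1 libraries 0.45, 0.12 and 0.38 FPKM.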
